A study of Mus musculus with 18 samples.

Results

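Whole liver was sequenced in 18 mice, and 40 of the 52230 genes counted in it are described here. These 40 genes mark liver cells other than hepatocytes. They were taken from what is known of each cell type, and no threshold on their values in these libraries was used. Earlier results of these data were known when they were chosen. They comprise 9 markers of Kupffer cells, 10 of sinusoidal endothelial cells, 9 of stellate cells, 5 of bile duct cells and 7 of lymphoid cells. The mice came from the GCKR-P446L-EMI-B6N line, in which the edited Gckr gene codes for leucine in place of a proline of GKRP, the glucokinase regulatory protein, in every cell that makes it. There were 4 male and 5 female mice with the 446P protein (PP) and 4 male and 5 female mice with the 446L protein (LL). All were kept on standard rodent diet. By the label of each mouse, ages were 9 to 14 weeks in male PP, 13 to 14 in male LL, 9 to 14 in female PP and 11 to 14 in female LL animals, although the series text states a single age of 14 weeks. The edit is a substitution, so the count of Gckr does not check the genotype.

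Hepatocytes make up most of the mass of the liver, and the other cells line its blood spaces or lie beside them. Kupffer cells are macrophages that stay in the sinusoids and take up particles, bacteria and old red cells. Sinusoidal endothelial cells form a perforated wall and remove waste molecules through scavenger receptors. Stellate cells store retinol and, when activated, make collagen. Bile duct cells line the bile ducts, and lymphoid cells pass through or reside in the tissue.

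Total estimated counts were between 3794671 and 6613905 per library. The 40 markers together took between 0.0234% and 0.0846% of the counts of a library. The 13 hepatocyte markers looked up as a check of the tissue had summed normalized counts from 527107 to 974129 per library. Of the markers of tissues that could be carried over at dissection, 0 of 5 adipocyte and 0 of 4 mesothelial genes passed the filter on low counts. Adipoq, Lep and Retn had 0 counts in all 18 libraries. Of 8 pancreatic acinar genes 1 passed the filter. The fragment length of a library, estimated from the deposited effective lengths, was 518 ± 95.7 bases in male PP, 407 ± 156 in male LL, 448 ± 108 in female PP and 292 ± 52.1 in female LL livers (SD, n = 4, 4, 5 and 5). It was shorter in female LL than in female PP mice (exact permutation test, two-sided, p = 0.0159), and mitochondrial genes took a larger share of its counts (12.4% ± 1.34 against 10.2% ± 1.11, p = 0.0317 by the same test). In males the same 2 comparisons gave p = 0.286 and 0.171 by the exact test.

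Of the 40 markers, 32 had at least 10 counts in at least 4 libraries and were tested. These were all 9 Kupffer cell, all 10 endothelial, 8 of 9 stellate cell, 4 of 7 lymphoid and 1 of 5 bile duct markers. The 8 others were at or near the limit of detection. Krt7 and Krt19, keratins of bile duct cells, had at most 3 counts in any library and 0 in 9 and 8 of the 18. Epcam, an adhesion molecule of bile duct epithelium, reached 5 counts and Sox9, a transcription factor of the same cells, 9 counts. Cd3e, a chain of the T-cell receptor complex, reached 4 counts and had 0 in 8 libraries. Nkg7, a granule protein of natural killer and T cells, reached 5 counts, and Cd79a, a chain of the B-cell receptor complex, 6 counts. Col1a1, a chain of type I collagen, had 5.68 normalized counts on average, with 0 in 2 male PP libraries and a highest level of 14.7 in the library male PP 1. For the epithelial and lymphocyte genes among these 8, differences between groups were not detectable at this depth. The level of the bile duct set below is therefore that of Spp1, which other cells also make.

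Compared per transcript length, the most abundant markers were Ecm1 at 82.8 TPM, Clec4f at 47.5 TPM and Dcn at 43.5 TPM as means over 18 libraries. TPM is an abundance scaled for transcript length and for the library total. The order differed by group, and in male PP livers Clec4f, at 46.7 ± 33.3 TPM, stood before Ecm1, at 32.7 ± 16.1 TPM (SD, n = 4). Dcn encodes decorin, a small matrix proteoglycan, and 0% of its TPM lay on transcripts under 1000 bases. For other genes short transcripts carried much of the TPM: 90.4% for Stab1, 84.9% for Reln, 81.1% for Ecm1 and 73.7% for Clec4f. In counts the shares on short transcripts were lower, at 21.0%, 21.5%, 39.0% and 27.5% in the same order. Among the genes with under 10% of TPM on short transcripts, Cd74 was at 29.7, Cd5l at 21.6, Clec4g at 18.4 and Vsig4 at 10.1 TPM. The lowest tested markers were Pdgfrb at 0.348, Des at 0.401 and Lyve1 at 0.492 TPM. All comparisons between groups below use normalized counts, that is estimated counts divided by the size factor of the library.

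The sequences before the annotated starts of 4 markers are shown because of a difference between the sexes in PP mice. There endothelial genes differed together and the 2 Kupffer cell genes differed less. In LL mice the order of these 4 genes was reversed. The log2 fold changes of females against males were 0.85 ± 0.25 for Vsig4 and 0.54 ± 0.20 for Clec4f. They were 0.20 ± 0.28 for Dnase1l3 and 0.29 ± 0.28 for Clec4g. The set medians were 0.47 for Kupffer cell and 0.19 for endothelial markers. Single members went the other way, with the endothelial Stab1 at 0.54 and Stab2 at 0.51 beside the Kupffer cell Cd5l at 0.18 and Marco at 0.11. In the interaction of genotype and sex, described below, 0 markers were called. Each run is the 250 bases before the start of the canonical GENCODE M39 transcript in GRCm39, on the strand of the gene. Capitals mark matches on either strand to 3 motifs, TTCNNNGAA as bound by STAT5, AGGAAG as bound by ETS factors and AGATAA as bound by GATA factors. Dnase1l3 lies at chr14:14474950-14475199 on the plus strand, Clec4g at chr8:3770672-3770921, Clec4f at chr6:83633170-83633419 and Vsig4 at chrX:95337045-95337294, each of these 3 on the minus strand.
Dnase1l3: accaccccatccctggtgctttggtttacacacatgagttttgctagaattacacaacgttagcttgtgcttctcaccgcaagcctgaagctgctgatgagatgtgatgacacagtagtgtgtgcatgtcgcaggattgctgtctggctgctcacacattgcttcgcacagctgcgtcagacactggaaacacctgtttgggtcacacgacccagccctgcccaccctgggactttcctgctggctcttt
Clec4g: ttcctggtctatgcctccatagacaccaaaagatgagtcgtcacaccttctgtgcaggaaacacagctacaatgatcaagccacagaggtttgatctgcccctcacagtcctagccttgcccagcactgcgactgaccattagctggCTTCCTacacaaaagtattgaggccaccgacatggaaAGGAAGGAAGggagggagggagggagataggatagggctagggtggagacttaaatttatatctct
Clec4f: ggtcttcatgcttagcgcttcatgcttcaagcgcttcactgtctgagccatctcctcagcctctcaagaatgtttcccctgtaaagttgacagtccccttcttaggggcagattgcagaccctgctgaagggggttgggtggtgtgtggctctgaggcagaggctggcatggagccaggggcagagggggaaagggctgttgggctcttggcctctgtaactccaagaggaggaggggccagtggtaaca
Vsig4: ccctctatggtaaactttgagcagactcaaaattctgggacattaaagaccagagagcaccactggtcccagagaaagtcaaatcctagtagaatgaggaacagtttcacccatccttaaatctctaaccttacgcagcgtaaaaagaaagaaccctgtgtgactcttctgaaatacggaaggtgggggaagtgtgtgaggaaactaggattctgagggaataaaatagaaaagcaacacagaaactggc

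Clec4g held 3 ETS-type matches, starting 103, 66 and 62 bases before the start. The last of these shares 2 letters with the one before it. The windows of Dnase1l3, Clec4f and Vsig4 held no match, which says only that these letters are absent from 250 bases. Among 21751 promoters of protein-coding genes of the same length, 7.7% held the STAT5-type, 28.9% the ETS-type and 9.6% the GATA-type letters. Of the 35 markers searched, 2 held the first, 13 the second and 1 the third. Csf1r, Pdgfrb and Cd74, which lie on chromosome 18, and Ighm and Igkc were not searched. The ETS-type letters were in 4 of 8 Kupffer cell, 4 of 10 endothelial and 1 of 8 stellate cell promoters. A match is a description of sequence and not a bound site.

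Female PP livers had higher levels of endothelial and stellate cell markers than male PP livers. In this comparison 12 of the 32 tested markers were called higher and 0 lower, where a call needs a DESeq2 adjusted P under 0.05 together with a 1.3-fold rise or a fall to 0.7 of the level. Over all 10938 tested genes 3.68% were called higher and 2.77% lower. The 12 were 7 of 10 endothelial and 5 of 8 stellate cell markers, and 0 of 9 Kupffer cell markers were called. The median log2 fold change was 1.12 for the endothelial, 1.01 for the stellate cell and 0.16 for the Kupffer cell set, against -0.00165 for all tested genes. In bulk tissue, more cells of a type and more RNA per cell cannot be told apart.

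Dnase1l3 (ENSMUSG00000025279, chromosome 14, 14475200 to 14505240) encodes a secreted nuclease made by sinusoidal endothelial cells and had the largest change of the set. Its normalized counts were 28.7, 36.0, 44.8 and 64.6 in male PP and 128, 113, 68.0, 110.4 and 141 in female PP mice 1 to 5. Every female PP library was above every male PP library. The log2 fold change was 1.34 ± 0.28 (SE), with an adjusted P of 1.08e-04. Clec4g, an endothelial lectin receptor, had 33.8, 69.5, 85.0 and 105 normalized counts in male PP and 184, 157, 107, 158 and 228 in female PP mice. The 2 groups were close at 1 point, where male PP 4 and female PP 3 lay side by side, and did not overlap. The log2 fold change of Clec4g was 1.17 ± 0.28, adjusted P 0.00114.

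Oit3, a secreted protein of these cells, rose by 1.32 ± 0.33 on the log2 scale (adjusted P 0.00197), although female PP 3 at 25.3 was below male PP 4 at 29.96 normalized counts. Kdr, the main receptor for vascular endothelial growth factor, went from 36.8 ± 13.4 (SD, n = 4) to 83.8 ± 32.4 (SD, n = 5), a log2 fold change of 1.17 ± 0.30 with adjusted P 0.00274. Cdh5, the cadherin of endothelial junctions, rose from 21.5 ± 7.21 to 47.1 ± 13.9 (1.10 ± 0.30, adjusted P 0.00594). The groups of Cdh5 did not overlap, and those of Kdr met at 52.1 in male PP 4 and 52.1 in female PP 3. Fcgr2b, an inhibitory receptor for immune complexes, rose from 76.0 ± 16.04 to 138 ± 34.1 (0.86 ± 0.24, adjusted P 0.00731). It shares 5.79% of its 31-base words with other genes, most with Fcgr3, so the division of reads between the 2 genes is uncertain. Stab1, a scavenger receptor, rose from 39.4 ± 6.11 to 71.3 ± 7.45 (0.84 ± 0.22, adjusted P 0.00439). The call for Stab1 was lost with a transcript length offset, where the log2 fold change was 0.26 and the adjusted P 0.909.

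The 3 endothelial markers that were not called also had positive log2 fold changes. Stab2, the paralog of Stab1 and a hyaluronan receptor, had 0.50 ± 0.19 (adjusted P 0.0868). Pecam1, an adhesion molecule of all endothelium, had 0.99 ± 0.37 (adjusted P 0.0859). Lyve1, another hyaluronan receptor, had 1.15 ± 0.53 with a wide error (adjusted P 0.205), at only 5.20 ± 2.74 and 11.6 ± 5.00 normalized counts.

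**Figure D1:**
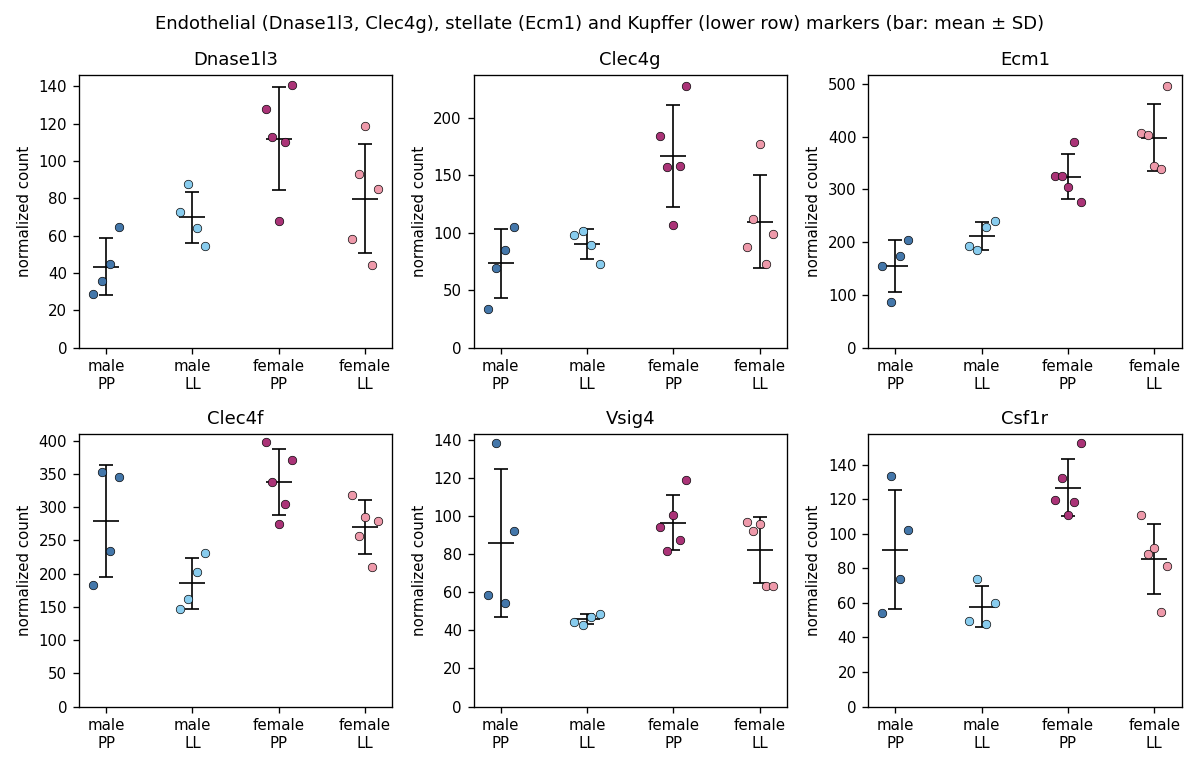
Normalized count (vertical axis, from 0) of 6 markers in each library, by group (horizontal axis), with the mean and SD as bars. Dnase1l3, Clec4g and Ecm1 do not overlap between male PP and female PP mice, while Clec4f, Vsig4 and Csf1r do, with the widest scatter in the 4 male PP libraries.

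Among stellate cell markers, Ecm1 (ENSMUSG00000028108, chromosome 3, 95640761 to 95646943), an extracellular matrix protein that stellate cells and hepatocytes can make, gave the smallest adjusted P of the 32 tested markers. Its normalized counts were 155, 87.4, 173 and 205 in male PP and 325, 325, 305, 390.4 and 276 in female PP mice. The lowest female library was 276 and the highest male library 205. The log2 fold change was 1.06 ± 0.19, adjusted P 1.98e-06. With a transcript length offset it was 0.78 with adjusted P 0.285, and with transcripts of at least 1000 bases only it was 1.22 with adjusted P 5.00e-04. Reln, the secreted glycoprotein reelin, had 55.8, 31.98, 49.3 and 91.9 normalized counts in male PP and 143, 132, 107, 107 and 184 in female PP mice. Every female library was above every male library, and the log2 fold change was 1.24 ± 0.28 (adjusted P 3.33e-04). With the length offset the log2 fold change of Reln was 0.87 and the adjusted P 0.214.

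Dcn rose from 275 ± 103 (SD, n = 4) to 527 ± 57.4 (SD, n = 5) normalized counts (0.93 ± 0.24, adjusted P 0.00287), again without overlap. Col3a1, a fibrillar collagen chain, rose from 32.4 ± 11.6 to 66.3 ± 18.4 (1.05 ± 0.29, adjusted P 0.00785), with female PP 2 at 39.8 inside the male range. Lrat, which esterifies retinol for storage, rose by 1.04 ± 0.35 on the log2 scale with an adjusted P of 0.0490. That call was the least stable of the 12, being kept in 10 of 20 alternatives, with an adjusted P of 0.107 by edgeR and 0.204 without male PP 1. Fcgr2b was lost with a transcript length offset (0.71, adjusted P 0.0615) and without male PP 2 (0.75, adjusted P 0.0608). Col3a1 was lost with the length offset (1.60, adjusted P 0.0800), without male PP 2 (adjusted P 0.0516) and without male PP 3 (adjusted P 0.0811). Clec4g, Kdr, Cdh5, Oit3, Dnase1l3 and Dcn were called in all 20 alternatives.

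The other stellate cell markers tested were not called. Col1a2, the partner chain of Col1a1, had a log2 fold change of 0.79 ± 0.36 (adjusted P 0.203). Des, which encodes the filament protein desmin, had 0.99 ± 0.48 (adjusted P 0.246). It passed the filter on low counts mainly through the female PP libraries, where it was highest, at up to 11.0 normalized counts. The highest level was 6.27 in male PP and 7.22 in male LL livers. The filter thus favoured the direction of Des, which also enters the median and the level of the stellate cell set. Pdgfrb, a growth factor receptor of stellate cells and pericytes, had 0.86 ± 0.42 (adjusted P 0.263), and its 15.2 ± 1.69 normalized counts in female PP mice lay above the highest male value of 12.1 in every library. In all, 10 of the 32 tested markers had every female PP library above every male PP library and 0 had the reverse, against 5.28% and 4.55% of all tested genes.

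Kupffer cell markers gave no call between the PP sexes. Clec4f, a lectin receptor found on Kupffer cells, had 182, 353, 234 and 346 normalized counts in male PP and 398, 338, 275, 304 and 372 in female PP mice, with overlapping ranges (0.27 ± 0.19, adjusted P 0.530). The 95% interval of the log2 fold change ran from -0.11 to 0.65. Vsig4, a complement receptor, had 0.16 ± 0.23, Cd5l, a secreted scavenger protein, 0.16 ± 0.27, and Cd68, a lysosomal membrane protein, 0.086 ± 0.29. Csf1r, the receptor for the macrophage growth factor CSF1, had 0.47 ± 0.23 (adjusted P 0.249) and Adgre1, which encodes the F4/80 antigen, 0.51 ± 0.36 (adjusted P 0.527). Folr2, a folate receptor, had 0.34 ± 0.30, while Marco, a scavenger receptor, had -0.42 ± 0.43 and Timd4, a receptor for dying cells, -0.17 ± 0.38. The 4 male PP libraries spread widely in these genes, with Marco from 8.09 in male PP 1 to 65.4 in male PP 2. The call for Csf1r was gained without male PP 2 (adjusted P 0.0411).

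Of the lymphoid markers, Ighm, the heavy chain of IgM, had 1.60, 5.87, 9.47 and 6.46 normalized counts in male PP and 16.5, 20.6, 16.03, 14.6 and 8.73 in female PP mice. The log2 fold change was 1.299 ± 0.47 with an adjusted P of 0.0694, which missed the threshold. Igkc, the kappa light chain, had -0.45 ± 0.54, Cd74, the invariant chain of class II antigen presentation, 0.051 ± 0.34, and Ptprc, the CD45 antigen of white blood cells, 0.16 ± 0.32. Spp1, the secreted protein osteopontin, had 0.10 ± 0.24 (adjusted P 0.902). It shares 9.72% of its 31-base words with another annotated gene, Gm42793.

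Expressed as set levels, the mean of log2(normalized count + 1) over the tested members, the endothelial set was at 4.55, 5.01, 5.07 and 5.19 in male PP and 6.20, 5.95, 5.43, 5.89 and 6.47 in female PP mice. The stellate cell set was at 4.87, 4.86, 5.04 and 5.41 in male PP and 6.26, 5.84, 6.00, 5.99 and 6.11 in female PP mice. Both sets were higher in every female PP library, by 1.03 and 0.99 between the means. The Kupffer cell set overlapped, at 5.67 ± 0.72 and 5.98 ± 0.13 (SD). The mean log2 level of the 13 hepatocyte markers was 14.12 ± 0.13 in male PP and 14.21 ± 0.091 in female PP mice. Their summed normalized count, in which Alb weighs most, was also higher in female PP mice (867894 to 974129) than in male PP mice (527107 to 654200.0), and its part in the marker result was not tested. Of 5 tested erythroid markers, which trace blood left in the tissue, 1 was called lower in female PP mice, Alas2, an enzyme of haem synthesis, at -2.73 ± 0.26, and the median of the 5 was -1.296. Their part was not tested either. With total counts as the scale the median of all tested genes was itself shifted by 0.37 and 21 markers were called.

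**Figure D2:**
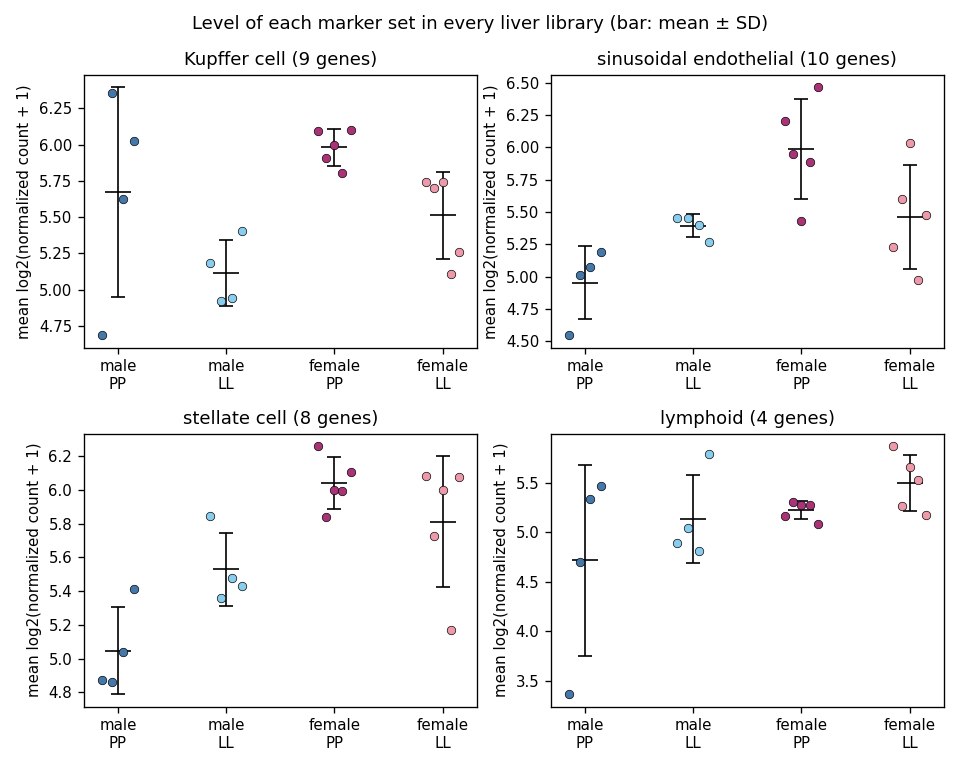
Mean log2(normalized count + 1) of the tested members of 4 marker sets (vertical axes) in each library, by group (horizontal axes), with the mean and SD as bars. The endothelial and stellate cell sets are lowest in male PP mice and do not overlap with female PP mice, while the Kupffer cell set is lower in every female LL than in every female PP library.

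In LL mice the endothelial markers differed less in size between the sexes, and the test of that change is the interaction of genotype and sex, in which 0 markers were called. Of the 32 tested markers 2 were called higher in female LL than in male LL livers and 0 lower, where 3.33% of all tested genes were called higher and 2.79% lower. The medians were 0.19 for the endothelial, 0.31 for the stellate cell and 0.47 for the Kupffer cell set, against 0.0134 for all tested genes. Ecm1 had 192, 186, 228 and 241 normalized counts in male LL and 406, 404, 344, 339 and 497 in female LL livers. Every female library was above every male library, with a log2 fold change of 0.91 ± 0.19 (adjusted P 1.07e-04), and the call was lost with a transcript length offset (log2 fold change 0.71, adjusted P 0.382). Vsig4 had 44.1, 42.9, 47.2 and 48.6 normalized counts in male LL and 96.7, 92.0, 95.7, 63.2 and 63.3 in female LL livers. The 4 male values lay within 6 counts of each other and below all 5 female values, and the log2 fold change was 0.85 ± 0.25 (adjusted P 0.0160). This call was kept in 15 of 20 alternatives, with adjusted P from 9.94e-04 to 0.0797. It was lost without female LL 1, male LL 1 or male LL 2, at adjusted P of 0.0556, 0.0536 and 0.0553, with a transcript length offset (0.81, adjusted P 0.0797), and in 1 further alternative, the replicate number as a block.

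The other Kupffer cell markers of LL mice were led by Folr2 (0.91 ± 0.33, adjusted P 0.0734), Csf1r (0.56 ± 0.24, 0.143) and Clec4f (0.54 ± 0.20, 0.0710), none of which was called. Cd68 (0.47 ± 0.34), Cd5l (0.18 ± 0.27), Marco (0.11 ± 0.48), Timd4 (0.075 ± 0.41) and Adgre1 (-0.061 ± 0.39) had smaller values or wider errors. For the 2 stabilins every female LL library was above every male LL library without a call, with 0.54 ± 0.22 for Stab1 (adjusted P 0.114) and 0.51 ± 0.20 for Stab2 (adjusted P 0.107). Of the 7 endothelial genes called in PP mice, Stab1 and Oit3 (0.49 ± 0.32) had the larger values here, and the others had 0.20 ± 0.28 for Dnase1l3, 0.29 ± 0.28 for Clec4g, 0.17 ± 0.30 for Kdr, -0.048 ± 0.30 for Cdh5 and -0.028 ± 0.24 for Fcgr2b. Pecam1 was at 0.041 ± 0.37 and Lyve1 at -0.89 ± 0.51. Stellate cell genes other than Ecm1 ranged from -0.042 for Lrat to 0.51 for Pdgfrb, with Reln at 0.32 ± 0.27 and Dcn at 0.19 ± 0.24. Spp1 was higher in every female LL library (0.65 ± 0.25, adjusted P 0.0917), again without a call. In all, 6 markers had every female LL library above every male LL library, namely Vsig4, Cd68, Stab1, Stab2, Ecm1 and Spp1, against 3.64% of all tested genes. The 4 lymphoid markers ranged from -0.19 for Igkc to 0.53 for Ptprc, with Cd74 at 0.33 ± 0.34 and Ighm at 0.33 ± 0.40.

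**Figure D3:**
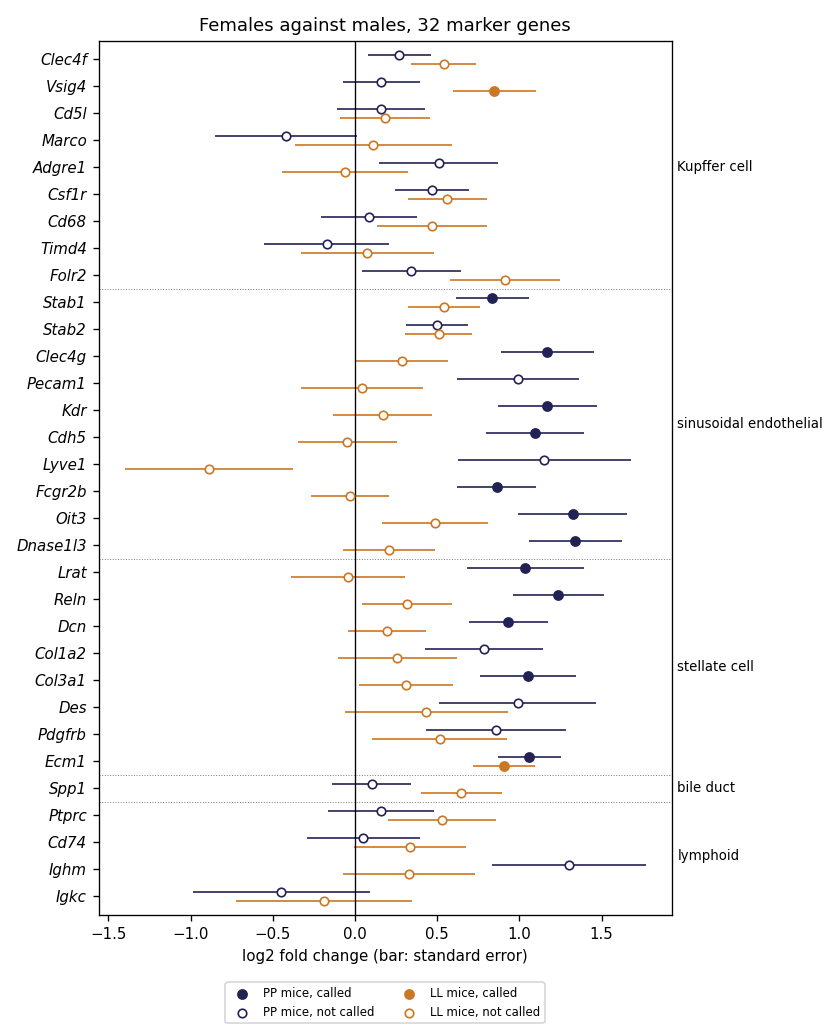
Log2 fold change of females against males with its standard error (horizontal axis) for the 32 tested markers (vertical axis, by cell type), in PP mice and in LL mice. Filled points are called: 12 in PP mice, all endothelial or stellate, and 2 in LL mice, Vsig4 and Ecm1.

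The LL genotype gave 0 called markers in males and 0 in females, where 0.283% and 0.658% of all tested genes were called in either direction. At an unadjusted p below 0.05, DESeq2 had 7 markers lower and 4 higher in male LL livers, and 9 lower and 0 higher in female LL livers. Over all tested genes the shares were 3.97% lower and 3.84% higher in males, and 6.4% lower and 6.65% higher in females. Every male LL library lay below every male PP library for Vsig4 and above for Fcgr2b, against 2.25% and 1.84% of all tested genes. Every female LL library lay below every female PP library for Cd5l, Marco and Csf1r, against 1.18%. edgeR called 0 in males and 0 in females. All 9 Kupffer cell markers had negative log2 fold changes in each sex, with medians of -0.66 in males and -0.36 in females. The endothelial medians were 0.40 in males and -0.51 in females, and the stellate cell medians 0.48 and -0.25. Des enters the stellate cell medians, and the filter on low counts favoured its negative value in females. The median of all tested genes was 0.0104 in females and 7.51e-05 in males.

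With the sexes averaged, 2 Kupffer cell markers, Csf1r and Vsig4, were called lower in LL mice and 0 markers higher, where 0.384% of all tested genes were called lower and 0.594% higher. Csf1r had 54.3, 133, 73.6 and 102 normalized counts in male PP and 49.4, 73.8, 48.0 and 60.0 in male LL livers. In females it had 119, 132, 111, 118 and 153 in PP and 111, 88.3, 91.7, 54.9 and 81.2 in LL mice. The female groups were separate by less than 1 count, and the male groups overlapped in male PP 1 and 3. The averaged log2 fold change was -0.61 ± 0.16 (adjusted P 0.0188), with -0.66 ± 0.25 in males and -0.57 ± 0.21 in females. Vsig4 had 58.4, 138, 54.2 and 91.8 normalized counts in male PP and 94.1, 81.6, 101, 87.2 and 119 in female PP mice. Every male LL library was below every male PP library, whereas the female groups overlapped. The averaged log2 fold change of Vsig4 was -0.57 ± 0.17 (adjusted P 0.0457), with -0.92 ± 0.26 in males and -0.23 ± 0.22 in females.

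Both calls depended on the libraries and on the model. Csf1r was called in 22 of 28 alternatives (adjusted P from 0.00265 to 0.225) and Vsig4 in 9 (adjusted P from 0.00702 to 0.511). Neither was called without male PP 2, where the adjusted P was 0.129 and 0.214, without male PP 4, where it was 0.0667 and 0.109, or without female PP 5, where it was 0.0505 and 0.0960. The log2 fold change over all alternatives stayed between -0.69 and -0.49 for Csf1r and between -0.66 and -0.41 for Vsig4. With the fragment length as a term it was -0.62 for Csf1r (adjusted P 0.187) and -0.43 for Vsig4 (adjusted P 0.511). The part of the shorter fragments of LL libraries in these values was not tested beyond this term. The count of called markers was 4 without male PP 1, which had the lowest Kupffer cell level of all libraries, or without male LL 4.

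The other 7 Kupffer cell markers had negative averaged log2 fold changes without a call. Clec4f had an adjusted P of 0.0473 and an averaged log2 fold change of -0.46 ± 0.14, which did not reach the fold limit. Its normalized counts were 147, 162, 202 and 231 in male LL and 319, 257, 286, 209.7 and 279 in female LL livers. Cd5l had -0.55 ± 0.19 (adjusted P 0.0868), and every female LL library, from 158 to 279, lay below every female PP library, from 317 to 389. Folr2 had -0.64 ± 0.23 (adjusted P 0.0928). For Marco (-0.98 ± 0.32), Adgre1 (-0.57 ± 0.26), Cd68 (-0.49 ± 0.22) and Timd4 (-0.35 ± 0.28) DESeq2 set no adjusted P because of their low counts. Without that filter their adjusted P was 0.0892, 0.292, 0.284 and 0.623. Of the 9 Kupffer cell markers 8 had an unadjusted p below 0.05 in the averaged comparison, all lower, against 6.62% of all tested genes lower at that limit.

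The Kupffer cell set level was 4.69, 6.36, 5.62 and 6.02 in male PP and 5.19, 4.92, 4.94 and 5.40 in male LL livers. It was 6.10, 5.91, 6.00, 5.81 and 6.10 in female PP and 5.74, 5.70, 5.75, 5.11 and 5.26 in female LL livers. The female groups were separate and the male groups overlapped, with male PP 1 below all 4 male LL libraries. The differences between the means were -0.56 in males and -0.47 in females. The members of the set moved together from mouse to mouse, with a median Pearson r of 0.61 over 36 gene pairs, taken on deviations from the group means in 18 libraries. It was 0.48 over 45 endothelial pairs, 0.22 over 28 stellate cell pairs and -0.00200 over all pairs of tested genes. Kupffer cell genes also moved with other sets, at 0.30 with the endothelial, 0.23 with the stellate cell and 0.38 with the lymphoid set. With Spp1 of the bile duct set it was 0.040. Of the 4 tested lymphoid markers, Ptprc and Cd74 are not particular to lymphoid cells. The genes of all sets share the libraries and their depth, and the values are descriptions. Deviations of the Kupffer cell level and of the fragment length from their group means had an r of 0.53 over the 18 libraries, also given as a description with no test. This r was 0.54 for the lymphoid, 0.31 for the stellate cell, -0.0020 for the endothelial and -0.066 for the bile duct set.

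**Figure D4:**
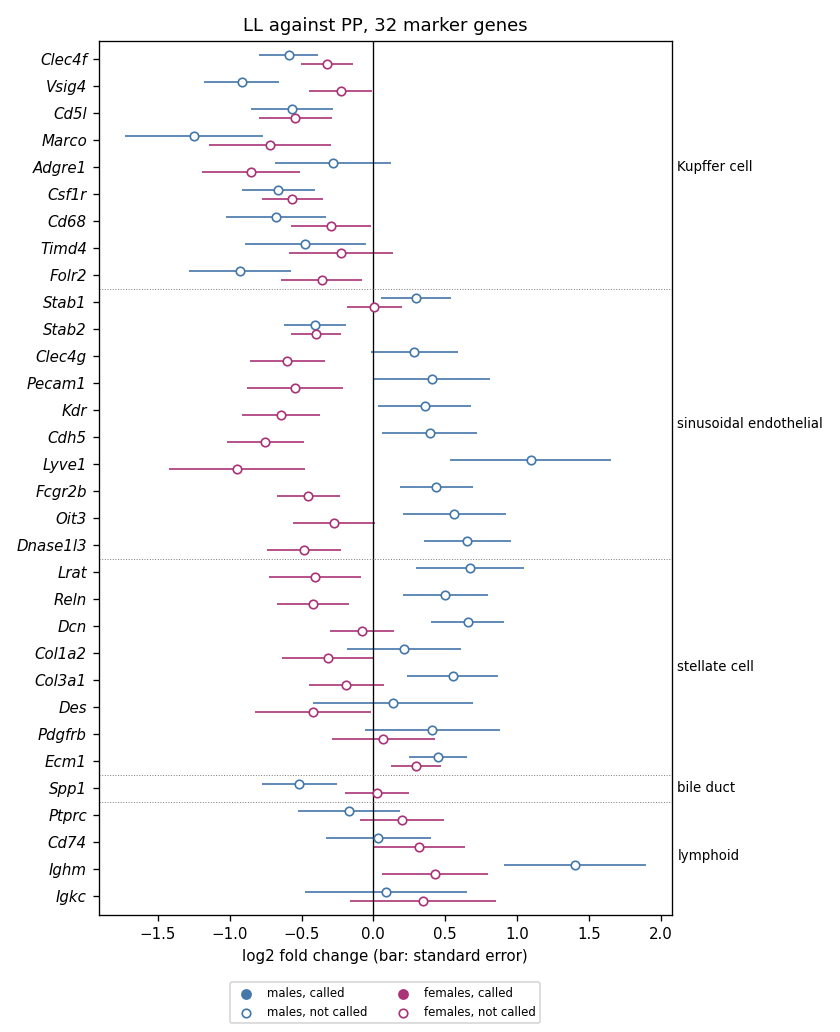
Log2 fold change of LL against PP with its standard error (horizontal axis) for the 32 tested markers (vertical axis, by cell type), in males and in females. No point is called. All 9 Kupffer cell genes lie below 0 in both sexes, while 9 of 10 endothelial genes lie above 0 in males and 9 of 10 below 0 in females.

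Most endothelial and stellate cell markers had opposite signs in the 2 sexes. In males 9 of 10 endothelial and 8 of 8 stellate cell markers had positive log2 fold changes, and in females 9 of 10 and 6 of 8 had negative ones. Des is among these 6. It passed the filter on low counts mainly through the female PP libraries, so its negative sign in females was favoured in advance. Over all tested genes the log2 fold change by genotype had a Spearman rho with median transcript length of -0.0443 in males and -0.20 in females. Over the tested markers it was 0.41 and -0.17. Median transcript lengths were 1708.5 bases for the endothelial, 1896.25 for the stellate cell and 1147.5 for the Kupffer cell set, against 1334 for all tested genes. Dnase1l3 had 72.5, 87.6, 64.3 and 54.8 normalized counts in male LL and 58.0, 93.0, 119, 44.6 and 84.9 in female LL livers. Its log2 fold change by LL genotype was 0.66 ± 0.30 in males and -0.48 ± 0.26 in females, and both ranges overlapped with those of PP mice. Fcgr2b was higher in every male LL than in every male PP library (0.44 ± 0.26, adjusted P 0.713 without independent filtering). Cdh5 had the smallest p in females (-0.75 ± 0.27, adjusted P 0.136), beside 0.39 ± 0.33 in males. The endothelial exceptions were the stabilins, of which Stab2 had -0.41 ± 0.21 in males and -0.40 ± 0.17 in females, and Stab1 0.30 ± 0.24 and 0.0068 ± 0.19. Clec4g (0.28 ± 0.30 and -0.60 ± 0.26), Kdr (0.36 ± 0.32 and -0.64 ± 0.27) and Lyve1 (1.09 ± 0.56 and -0.95 ± 0.47) followed the majority, as did Oit3 (0.56 ± 0.36 and -0.27 ± 0.29) and Pecam1 (0.41 ± 0.40 and -0.55 ± 0.33).

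The difference between the sexes in the effect of genotype was tested as an interaction, and 0 markers were called, where 0.119% of all tested genes were. At an unadjusted p below 0.05 DESeq2 had 9 markers with a negative and 1 with a positive interaction, against 2.9% and 2.77% of all tested genes. The 9 were Dnase1l3, Lyve1, Cdh5, Fcgr2b, Kdr and Clec4g of the endothelial set and Reln, Dcn and Lrat of the stellate cell set, and the positive one was Vsig4. The log2 interaction was -2.04 ± 0.73 for Lyve1, -1.14 ± 0.40 for Dnase1l3 and -1.14 ± 0.42 for Cdh5, with DESeq2 adjusted P of 0.456, 0.418 and 0.536 without independent filtering. Lyve1 had low counts, at 2.96 to 5.82 normalized counts in female LL livers apart from 13.7 in female LL 3. The median was -0.92 for the endothelial and -0.65 for the stellate cell set, against 0.27 for the Kupffer cell set and 0.0127 for all tested genes. The stellate cell median includes Des, for which the filter on low counts favoured a negative interaction. The interaction had a Spearman rho with median transcript length of -0.13 over all tested genes and -0.49 over the tested markers. The part of transcript length in these values was not tested beyond the transcript length offset. Each group of libraries enters a comparison of the sexes, a comparison of the genotypes and the interaction, so these results share libraries and are not independent. Erythroid markers moved the other way, with an interaction median of 1.54, 5 of 5 above 0 and 3 of 5 at an unadjusted p below 0.05, and their part in the marker values was not tested. edgeR called 0 markers, and Fcgr2b was called only without female LL 3 (-1.14, adjusted P 0.0422).

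Among the stellate cell markers, Dcn had 0.66 ± 0.25 in males (adjusted P 0.245) and -0.081 ± 0.22 in females. Reln had 0.50 ± 0.30 and -0.42 ± 0.25, and Lrat 0.67 ± 0.38 and -0.41 ± 0.32. Ecm1, like Pdgfrb, had positive values in both sexes, 0.45 ± 0.20 in males (adjusted P 0.342) and 0.30 ± 0.17 in females (adjusted P 0.415). The collagen genes had 0.21 ± 0.40 and -0.32 ± 0.32 for Col1a2 and 0.55 ± 0.32 and -0.19 ± 0.26 for Col3a1, and neither was called in either sex. Des (0.13 ± 0.56 and -0.42 ± 0.40) and Pdgfrb (0.41 ± 0.47 and 0.069 ± 0.36) had errors close to or above their values. The stellate cell set level was 5.53 ± 0.22 in male LL and 5.81 ± 0.39 in female LL livers (SD), and the endothelial set level 5.40 ± 0.087 and 5.46 ± 0.40. Female LL 4 was the lowest female library in both, at 5.17 and 4.97.

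The lymphoid markers and Spp1 were not called by genotype. Ighm had 6.51, 26.4, 20.3 and 11.7 normalized counts in male LL and 25.5, 17.2, 32.3, 15.5 and 11.0 in female LL livers, with log2 fold changes of 1.402 ± 0.49 in males and 0.43 ± 0.37 in females. Averaged over the sexes it was 0.92 ± 0.31, with an adjusted P of 0.101 without independent filtering. Igkc ranged from 12.2 to 95.2 within male LL livers alone. Its log2 fold changes were 0.087 ± 0.57 and 0.34 ± 0.51. Cd74 had 0.036 ± 0.36 and 0.32 ± 0.32, and Ptprc -0.17 ± 0.36 and 0.20 ± 0.29. Spp1 had -0.52 ± 0.26 in males, with male LL values of 68.0, 67.3, 50.6 and 49.6 against 75.9, 84.3, 110.4 and 64.7 in male PP mice, and 0.027 ± 0.22 in females. The lymphoid set level was lowest in male PP 1 at 3.36, next to 4.69, 5.33 and 5.47 in the other male PP mice.

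In a difference of 2 set levels within a library the scaling between libraries cancels, apart from the added count of 1. The endothelial level minus the Kupffer cell level was -0.14, -1.35, -0.55 and -0.83 in male PP and 0.27, 0.53, 0.45 and -0.13 in male LL livers. Every male LL library was above every male PP library, the nearest being male LL 4 and male PP 1, and the means differed by 1.000. In females the means were 0.0065 ± 0.35 in PP and -0.049 ± 0.32 in LL mice (SD), with overlapping ranges. For the stellate cell level minus the Kupffer cell level the male means differed by 1.04, but the ranges overlapped. There male PP 1 was at 0.185 and male LL 4 at 0.0244. The female means of this second score differed by 0.24, again with overlap. No test was made of these scores, because the sets were chosen with results of these libraries known.

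**Figure D5:**
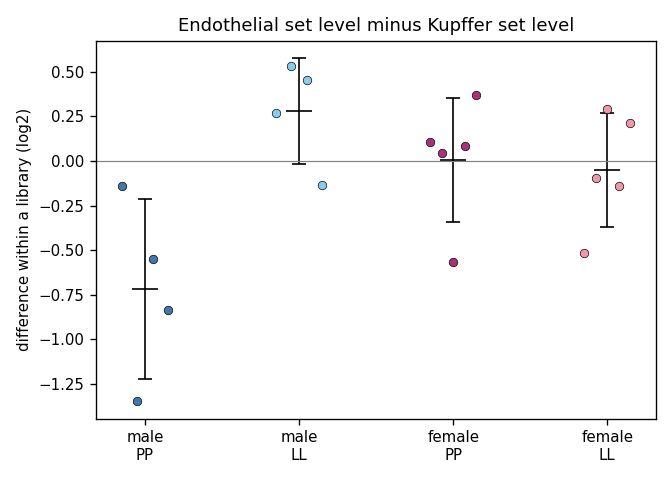
Endothelial set level minus Kupffer cell set level within each library (vertical axis, log2), by group (horizontal axis), with the mean and SD as bars. The mean is -0.72 in male PP and 0.28 in male LL livers, and 0.00652 and -0.0494 in female PP and LL mice.

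Further marker lists of the same cell types, which hold none of the 40 genes and were also drawn up with results of these libraries known, were read in the same fit. Between female PP and male PP mice, 9 of 16 tested further endothelial and 6 of 10 tested further stellate and fibroblast markers were called higher and 0 lower, with medians of 1.09 and 1.20. Over all tested genes 3.68% were called higher and 2.77% lower. Egfl7, a secreted endothelial protein, went from 22.5 ± 4.02 to 63.5 ± 8.96 normalized counts (1.49 ± 0.24, adjusted P 8.76e-08). Ptprb, an endothelial phosphatase, rose by 1.20 ± 0.23 on the log2 scale, and Eng, an endothelial TGF-beta co-receptor, by 1.18 ± 0.23. Sparc, a matrix protein, rose by 1.33 ± 0.22 and Colec11, a collectin of stellate cells, by 1.08 ± 0.20. Of 13 tested further macrophage markers 1 was called higher, the iron exporter Slc40a1 (0.60 ± 0.16), and 1 lower, the pore-forming protein Mpeg1 (-0.90 ± 0.26), with a list median of 0.10. Between female LL and male LL mice, 1 of 16 further endothelial, 1 of 10 further stellate and fibroblast and 0 of 13 further macrophage markers were called higher. None was called lower, and the medians were 0.12, 0.48 and 0.36. Over all tested genes 3.33% were called higher and 2.79% lower.

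By LL genotype the further lists gave 0 calls in males and 1 in females, Ptprb, which was lower in female LL livers at 79.3 ± 19.9 against 136 ± 40.3 normalized counts (-0.77 ± 0.21, adjusted P 0.0335). Over all tested genes 0.283% were called in males and 0.658% in females, in either direction. The further macrophage markers had medians of -0.50 in males and -0.24 in females, the further endothelial markers 0.31 and -0.35, and the further stellate and fibroblast markers 0.61 and -0.066. Of the 9 neutrophil and monocyte markers 0 passed the filter on low counts, with a summed level across groups from 8.11 to 36.3 normalized counts per library. The erythroid markers, which include the haemoglobins of blood left in the tissue, had summed levels of 1981 to 5889 in male PP, 968 to 4157 in male LL, 1283 to 2277 in female PP and 1126 to 6059.5 in female LL livers. The medians of these sums were 1723 in female PP and 4884 in female LL livers. All 5 tested erythroid markers had positive log2 fold changes in female LL against female PP livers, with a median of 1.08, 3 at an unadjusted p below 0.05 and 0 called. In males the median was -0.45. Their part in the marker values was not tested.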

How the data were processed

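RNA from the livers of the 18 mice was sequenced by the authors, who quantified transcripts with Salmon 1.4.0 against GENCODE M26 (GRCm39). They deposited, for each library, an estimated count, a TPM value, a length and an effective length per transcript. The estimated counts in the deposited tables are mostly not whole numbers (90.7% of the values above 0), because reads shared between transcripts are divided among them. The TPM values in the deposited tables divide the estimated count by the effective length and scale each library to the same sum.

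Estimated counts were summed per gene through the GENCODE M39 annotation, which joined 137570 of 139225 transcripts to 52230 genes and at least 99.76% of the counts of each library, and were rounded. A gene was tested if 4 or more libraries held 10 or more of its counts, which 10938 genes did. The groups are those of the labels. All 18 libraries entered 1 fit of DESeq2 1.42.0 (R 4.3.3) with a mean per group, and P values of the Wald test were adjusted over all tested genes by the Benjamini-Hochberg method. A gene was called at an adjusted P below 0.05 with a fold change of 1.3 or more, or 0.7 or less, and interactions needed no fold limit. The low-count step of DESeq2 (independent filtering) leaves some genes without an adjusted P. Fold changes are given with the standard error of the fit, and group values with the SD. Alternatives were edgeR 4.0.16 (quasi-likelihood), other scalings, no low-count filter, no independent filtering, pair-wise fits, length offsets, terms for fragment length, age and replicate number, and each library left out in turn. Summing only transcripts of at least 1000 bases was added after the data had been seen. The fit was tested on simulated counts. Limits from low counts cover counting error only, whereas intervals of fold changes come from the fit and include the spread between mice.

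The 40 markers and the further lists were chosen with earlier results of these data known. All 40 were named, and from the further lists the called genes, at most the 4 with the smallest p per list and comparison. The paper describes the PP mice compared with LL mice as their litter mates. The labels give neither the litter of a mouse nor pairs, so litter entered no fit. P values measure the spread between these mice.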

Additional observations from a re-analysis of the deposited data

Results flagged for a closer look

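In 144 groups of 4 or 5 libraries, 1 library stood apart from the others of its group in 5 cases, by the ratio of its gap to the range of the group. Chance gives about 1 such case in 20 groups. Adgre1, the F4/80 antigen, was at 45.4 normalized counts in female PP 5, next to 27.0 to 31.7 in the other 4 female PP libraries. Cd68 was at 9.66 in male LL 1, next to 13.1 to 13.5 in the other 3 male LL libraries. Stab1 was at 104.1 in female LL 5, next to 63.0 to 64.5 in the other 4 female LL libraries. Lyve1 was at 13.7 in female LL 3, next to 2.96 to 5.82 in the rest of its group. Des was at 5.44 in female PP 4, next to 9.85 to 11.0 in the rest of its group. No explanation was tested for these values.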

How the results depend on the processing

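Between female PP and male PP livers the count of called markers of all sets was 11 to 12 with each library left out in turn, though not always of the same genes. Without male PP 2, Fcgr2b, Col3a1 and Lrat were lost and Pecam1 and Csf1r gained. With a transcript length offset Stab1, Reln, Ecm1, Fcgr2b and Col3a1 were lost and Col1a2 gained. With total count scaling, which shifts the median of all tested genes by 0.37, the count was 21, including Clec4f, Csf1r and Ighm. Calls by genotype were less stable. The averaged count of 2 became 0 with edgeR, a transcript length offset or a fragment length term, and 1 with total count scaling, without independent filtering or with an age term. It ranged from 0 to 4 with libraries left out. It was 0 without female PP 5 or male PP 2, 4 without male PP 1 or male LL 4, 3 without female PP 4 (Ecm1 gained, as higher), and 1 without female PP 1, 2 or 3, female LL 4 or 5, or male LL 1, 2 or 3, which was Csf1r. Without male PP 4 it was also 1, but this was Ecm1, and both Csf1r and Vsig4 were lost. In males the count ranged from 0 to 2, with 2 (Vsig4 and Folr2) only without male PP 1. In females it was 1 (Cd5l) in a pair-wise fit. Between female LL and male LL livers the count of 2 became 8 with total count scaling and 1 with a transcript length offset, where Vsig4 and Ecm1 were lost and Stab1 was gained, and ranged from 1 to 3 with libraries left out, being 1 without female LL 1 or male LL 2. The interaction count ranged from 0 to 1, with 1 (Fcgr2b) only without female LL 3. The causes were not tested.

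With the replicate number as a block, the averaged count was 1 and that between the LL sexes 1, Vsig4 being lost in both. The other counts did not change, although between the PP sexes Lrat was lost and Ighm gained. Deviations of libraries with the same number correlated between -0.17 and 0.16. The labels state no pairing, and low correlations over all tested genes cannot exclude a weak one.

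Of the set level differences, the endothelial and stellate cell ones between PP sexes became 1.397 and 1.35 with total count scaling. With log2(TPM + 1), the Kupffer cell one between PP sexes became 0.83, the endothelial one between LL sexes 0.48, and the bile duct ones 0.79 between PP sexes and 0.95 between LL sexes. With all members counted, the bile duct ones became -0.12 by genotype in males and 0.13 between LL sexes. The other 272 set level values moved by less than the spread between libraries. No single marker reversed its direction where it was called. At the depth of these libraries, the 8 markers that did not pass the filter on low counts carry no comparison. Lyve1 and Des passed it with means of only 8.55 and 6.82 normalized counts, so their comparisons are uncertain.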

Other observations

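Aqp1, a water channel of bile duct cells and also of endothelium, was the 1 of 5 tested further bile duct markers called between the PP sexes, at 71.3 ± 30.5 normalized counts in male PP and 216 ± 86.0 in female PP mice (SD, n = 4 and 5; log2 fold change 1.59 ± 0.30, DESeq2 adjusted P 9.74e-06). Its log2 fold change by LL genotype in females was -0.97 ± 0.28, with an adjusted P of 0.0517. Of the 4 tested further lymphoid and plasma cell markers 0 were called in the comparison of the PP sexes, with a median of -0.23. Among hepatocyte markers, Alb, the serum albumin gene, was called in the interaction of genotype and sex (-0.61 ± 0.14, adjusted P 0.0180). Its log2 fold change by genotype was 0.37 ± 0.11 in males and -0.24 ± 0.10 in females. Pancreatic acinar markers, of which Try4 and Ctrb1 had 0 counts in all libraries, summed to 28.3 to 111 normalized counts per library. By group the sums were 82.5 to 111 in male PP, 42.8 to 109 in male LL, 38.7 to 81.6 in female PP and 28.3 to 69.2 in female LL livers. The 1 tested gene was lower in females at an unadjusted DESeq2 p below 0.05 in PP and in LL mice, without a call. The part of carried-over tissue in the marker values was not tested.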
